A study of Danio rerio with 15 samples.

Results

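Unexposed zebrafish larvae, sampled 168 h after fertilisation (7 days), were described from 3 of the 15 arrays in the series. These were the control arrays, replicates 1 to 3, each made from the pooled larvae of 1 beaker. All 15502 probe sets other than the Affymetrix control probe sets were used, and they cover 8793 named genes. The other 12 arrays came from larvae in fluoxetine at 25 or 250 µg/L or sertraline at 25 or 250 µg/L, with 3 beakers per concentration. Both drugs are selective serotonin reuptake inhibitors. All beakers held about 100 larvae that entered the experiment at 72 h after fertilisation and stayed for 96 h, and the unexposed beakers held fish water with no drug. The larvae of all groups were kept under covers on a 14:10 light cycle and were not fed, so that the yolk was their only supply. Neither the strain nor the hour of sampling is given in the sources used here.

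By the end of the first week a zebrafish larva swims freely, sees and hunts, and has a beating heart, a liver, a pancreas and a gut that can digest food. Its yolk is nearly used up. Fast trunk muscle, skin, eye and brain make up much of its body, whereas the digestive organs are small.

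The signal is given on a log2 scale as deposited. It depends on the probes of a probe set as well as on its transcript, so probe sets were placed in bands and not compared in pairs. Values were 0.78 to 15.46 on the 3 arrays, with medians of 4.61, 4.59 and 4.61. Pairs of arrays correlated across probe sets, which are not independent replicates, at r = 0.9968 for replicates 1 and 2, 0.9944 for replicates 1 and 3 and 0.9957 for replicates 2 and 3. The GAPDH 3' minus 5' difference, a sign of RNA quality, was 1.73, 1.55 and 1.69. Probe sets for fluorescent reporters, transcripts that these larvae should lack, read 1.59 to 2.09.

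Of the 15502 probe sets, 6474 (41.8%) averaged below 4 and 6999 (45.1%) between 4 and 8. A further 1852 (11.9%) lay between 8 and 12, and 177 (1.14%) at 12 or over. The median probe set stood at 4.60. By gene, taking the probe set with the highest mean, the median was 5.27 and 144 of 8793 genes reached 12. The plot of signal over all probe sets shows a separate shoulder between 13 and 14, and ribosomal protein genes, described next, had their median there.

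**Figure D1:**
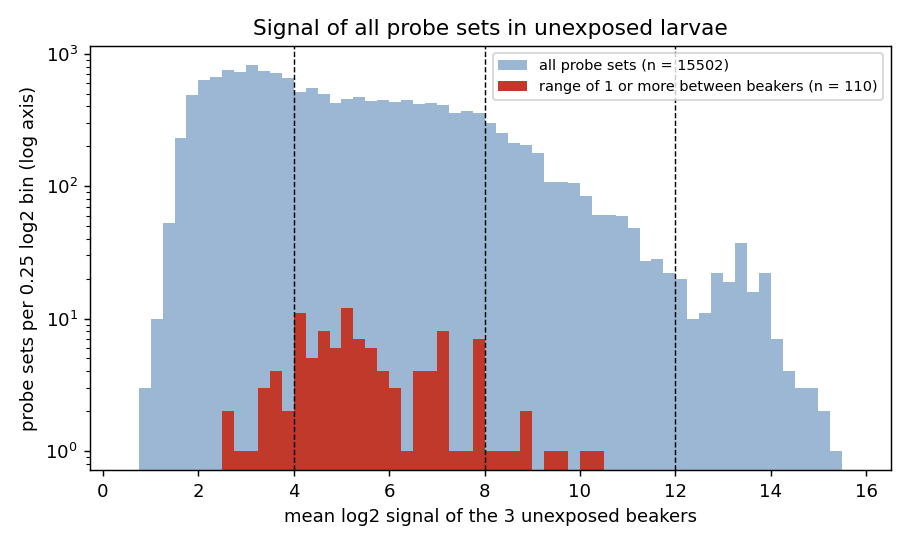
Number of probe sets (log axis) in bins of mean log2 signal over the 3 unexposed beakers, with dashed lines at 4, 8 and 12. Red bars are the 110 probe sets whose highest and lowest beaker differed by 1 or more, and none of them reached 12.

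Genes of protein synthesis and of fast muscle filled most of the top of the range. Among the 100 probe sets with the highest mean signal, 86 had 1 gene symbol and stood for 81 genes. Cytosolic ribosomal proteins gave 53 of these genes, out of 71 measured, and skeletal muscle gave 14 of 32. The list medians were 13.44 and 12.17. The 100th probe set had a mean of 13.17, as did the next, zgc:114188. In bulk RNA from whole larvae, more cells of a type and more RNA per cell cannot be told apart.

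Ribosomal protein genes encode the protein part of the ribosome. The gene rplp0, a protein of the ribosomal stalk, read 14.17, 14.19 and 14.23 in the 3 beakers. The gene rpl7a of the large subunit read 14.04, 14.00 and 14.03, and rps2 of the small subunit read 13.98, 13.87 and 14.05. The beakers thus differed by little for each, and 70 of the 71 genes stood at 12 or over. The exception was rps27l at 7.90. The spread of the whole list was small, with a median SD of 0.065 between beakers against 0.106 over all genes. All probe sets at 12 or over had a median SD of 0.075, so the list lay near its own band. Of the 10 translation elongation factor genes, 4 reached 12. Among them eef1a1l1, which brings aminoacyl-tRNA to the ribosome, read 14.29, 14.26 and 14.26.

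Skeletal muscle genes came from every part of the fast contractile apparatus. The actin gene actc1b read 15.10, 15.11 and 15.18, and pvalb2, a parvalbumin that binds calcium in fast fibres, read 14.74, 14.65 and 14.63. The fast troponin T gene tnnt3b read 14.49, 14.36 and 14.13. The fast myosin light chain gene mylpfa read 13.97, 14.10 and 14.03. Creatine kinase ckma, which buffers ATP, read 14.00, 13.92 and 13.87, and the calcium pump gene atp2a1 of the sarcoplasmic reticulum read 13.81, 13.65 and 13.50. No beaker stood apart by 1 for any of the 32 measured genes. Replicate 3 was lowest in 20 of the 32, against 28.1% of all genes.

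Heart muscle genes were lower on the scale. Of 9 measured, 7 averaged below 4, including the cardiac myosin light chain gene myl7 at 3.89, 3.52 and 3.52. The gene myh7, a myosin heavy chain, read 8.69, 8.35 and 7.99.

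Genes of energy metabolism stood high. The mitochondrial gene COX1, a subunit of cytochrome c oxidase, had 3 probe sets among the 100, and its brightest one read 15.46, 15.42 and 15.34. Of 70 nuclear genes of the respiratory chain, 69 lay above the median gene and 64 at 8 or over. The ATP synthase gene atp5f1b read 12.52, 12.54 and 12.22. The glycolysis list had a median of 8.99 over 28 genes, and gapdh, which oxidises glyceraldehyde 3-phosphate, read 13.45, 13.54 and 13.22. The median SD was 0.095 for the respiratory chain and 0.125 for glycolysis, and 0.106 over all genes.

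Eye genes were also in the top 100. The lens crystallin gene crybb1 read 13.66, 13.77 and 13.84, and cryba4, another, read 13.37, 13.39 and 13.40. From the retina came pde6ha, the inhibitory subunit of the cone phosphodiesterase, at 13.97, 13.81 and 13.55, and opn1sw1, the ultraviolet cone opsin, at 13.05, 13.28 and 13.28. The opsins of other cones were spread over the bands. The blue opsin gene opn1sw2 read 11.48, 11.68 and 11.62, the green opsin gene opn1mw1 read 10.40, 10.65 and 10.69, and opn1mw4 stayed at 2.92, 2.84 and 2.91. The lens list was split, with 3 of 13 genes at 12 or over and 7 below 4.

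Neurons and glia were well represented below the top 100. Of 33 measured neuron genes all lay above the median gene and 30 at 8 or over. The synuclein gene sncb read 12.40, 12.26 and 12.16, and snap25a, part of the machinery for synaptic vesicle fusion, read 12.07, 12.35 and 12.08. The glial glutamate transporter gene slc1a2b read 12.15, 12.22 and 12.24. Myelin basic protein, mbpa, read 9.43, 9.61 and 9.33. Serotonin and monoamine genes were lower, with a median of 2.63 over 11 genes. Tryptophan hydroxylase tph2, the brain enzyme of serotonin synthesis, read 4.78, 5.34 and 5.07.

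Epidermis and matrix followed. The keratin gene krt91 read 13.24, 13.22 and 13.16 by its brightest probe set and 13.25, 13.16 and 12.73 by another. The keratin gene krt5 read 12.88, 12.80 and 12.19. All 3 probe sets were lowest in replicate 3. The cartilage collagen gene col2a1a read 11.11, 11.32 and 11.31. The claudin gene cldng, which belongs to a family of tight junction proteins, read 14.29, 14.44 and 14.39 by its brightest probe set.

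Most genes of a list for fasting and glucose synthesis also stood above the median gene. The fasting and gluconeogenesis list had a median of 7.77 over 33 genes, of which 26 lay above the median gene. The mitochondrial carrier gene ucp1 read 11.64, 11.19 and 10.97. The muscle ubiquitin ligase genes trim63a (10.02, 9.84 and 9.38) and fbxo32 (9.68, 9.31 and 9.47) are known in mammals for rising in fasted muscle. The gene pck1, which commits carbon to glucose synthesis, read 8.26, 7.69 and 7.35. A fed group was not part of the series, so a link of these levels to the lack of food was not tested.

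At the low end were genes of the egg and the embryo. All 13 measured vitellogenin and egg coat genes averaged below 4, as did 18 of 19 germ cell genes and 30 of 36 early embryonic regulators. The germ cell helicase gene ddx4 read 3.05, 2.95 and 3.06, and the pluripotency gene nanog averaged 1.88. The exceptions included sox3 at 8.61, 8.61 and 8.23, a gene that neural progenitors also use, and nanos1 at 7.80, 7.79 and 7.83. Cell cycle genes were spread over the lower bands: 27 of 55 lay below 4, and pcna, the sliding clamp of DNA replication, read 8.97, 8.83 and 9.27. No gene of the hatching gland list was measured.

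Most members of some other lists were also low. Erythrocyte genes had 11 of 16 below 4, and the globin gene hbae3 read 10.24, 9.97 and 10.01 while hbbe3 read 1.47, 1.44 and 1.47. The endocrine pancreas list had 6 of 7 below 4, among them the insulin gene ins at 2.45, 2.43 and 2.46. Of 33 lists with a measured gene, 15 had a median above that of all genes. A low value may belong to a weak probe set as well as to a scarce transcript, and for single genes the arrays do not separate these.

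**Figure D2:**
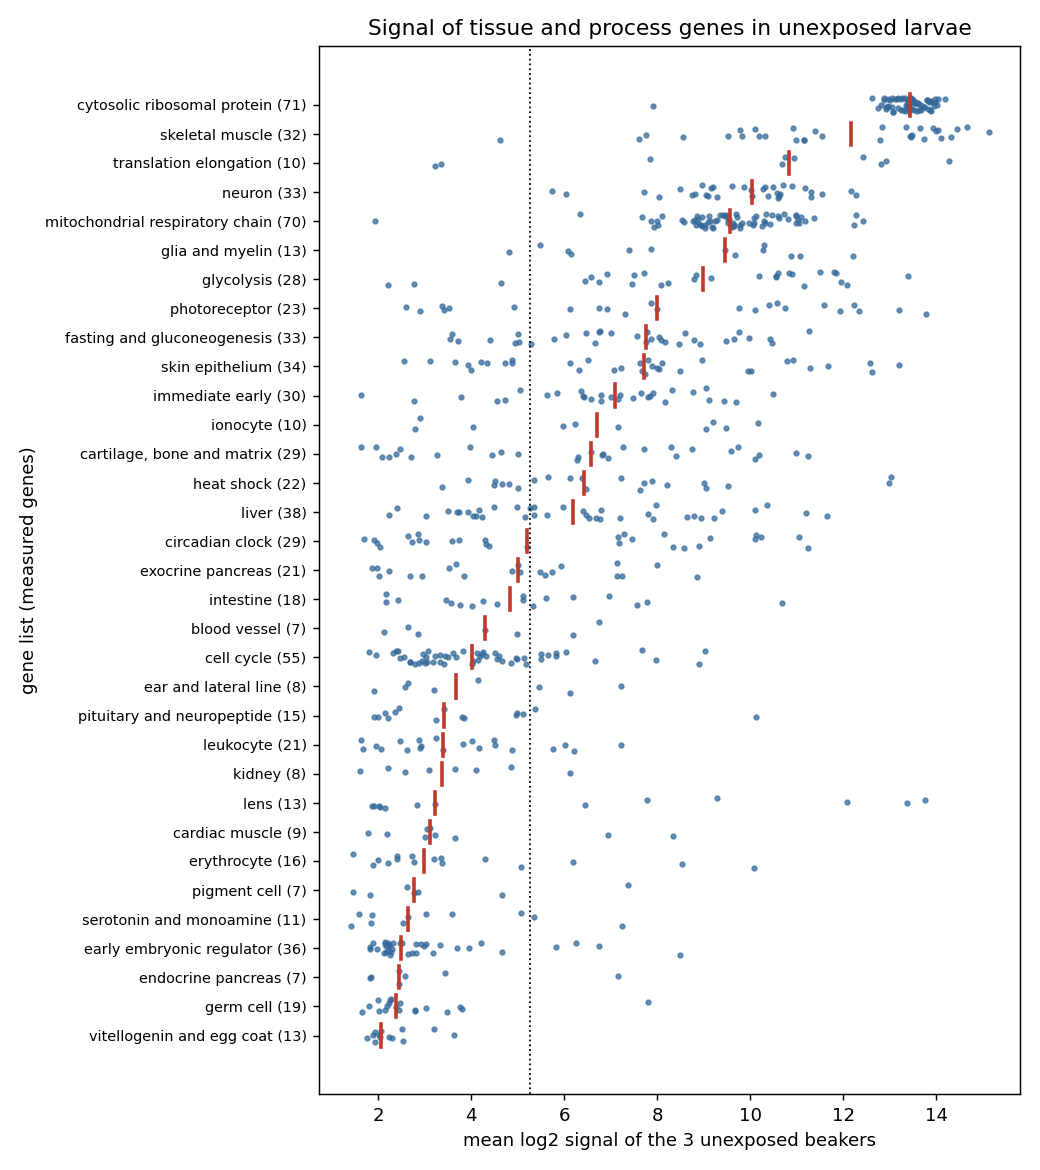
Mean log2 signal over the 3 unexposed beakers for each measured gene (points) of 33 gene lists, with list medians (red bars) and the median gene (dotted line at 5.27). Ribosomal proteins lie highest (median 13.44), followed by skeletal muscle (12.17), and vitellogenin and egg coat genes lie lowest (2.05).

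Among the gene lists, the 3 unexposed beakers differed most in those of the digestive organs. The median SD over all probe sets was 0.098, and 110 probe sets had a range of 1 or more, which is a difference of at least 2-fold between the highest and the lowest beaker. In 59 of these 110, replicate 1 was highest and replicate 3 lowest, an order that 15.0% of all probe sets had. Among the 100 probe sets with the largest SD were 12 of the 21 measured exocrine pancreas genes, 10 of 38 liver genes and 5 of 18 intestine genes. These 100 stood for 83 of all 8793 genes. Of the 83, only 29 were in any list, and the lists held 786 of the 8793. With 3 beakers and no labelled difference among them, none of this can be tested. The 100th probe set had an SD of 0.535, as did the next one.

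Pancreatic enzymes spread over the whole range of food digestion. The chymotrypsinogen gene ctrb.1 read 8.60, 7.02 and 6.12, an SD of 1.26 and the largest of any probe set. Replicate 1 was far above the others. The trypsinogen gene prss1 read 9.62, 8.70 and 8.27. Elastase genes ela3l (6.93, 5.77 and 4.53) and ela2l (8.11, 7.09 and 6.22) had the same order. Each of these is a protease that acinar cells release as an inactive precursor. The carboxypeptidase gene cpb1 read 6.76, 5.34 and 4.63, and the starch-digesting amylase gene amy2a read 6.94, 5.79 and 5.07. The zymogen granule gene sycn.2 read 6.01, 4.63 and 4.37.

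Over the 21 genes the list mean was 5.45, 4.73 and 4.23 in replicates 1, 2 and 3. Replicate 1 was highest in 20 of the 21, or in 19 after quantile normalization and in all 21 after centring each array on its median. Over all genes replicate 1 was highest in 38.6%. Some lists with small spans, described below, also had replicate 1 highest in most genes. Among the 21 genes, the members with little spread were those near the floor. Examples were pla2g1b at 1.90, 1.85 and 1.88 and ptf1a, the acinar transcription factor, at 2.05, 1.99 and 2.00. The endocrine pancreas list did not follow: its means were 3.07, 3.09 and 3.16, although 6 of its 7 genes were below 4.

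Liver genes had the same highest beaker with a smaller span. The list mean was 6.67, 6.23 and 6.06 over 38 genes, and replicate 1 was highest in 34. The transferrin gene tfa, an iron carrier of plasma, read 10.77, 9.97 and 9.56. The liver fatty acid-binding gene fabp10a read 10.97, 10.28 and 9.88. The apolipoprotein gene apobb.1, which carries lipid out of liver and yolk, read 9.54, 9.01 and 8.30. Further members of the 100 were the urate oxidase gene uox (7.15, 6.60 and 5.64), the complement gene c9 (5.95, 5.33 and 4.52) and tat, a tyrosine-degrading enzyme (9.14, 8.75 and 8.04). Not all hepatic genes took part: hgd and fah, also of tyrosine breakdown, read 7.91, 8.01 and 7.99 and 6.76, 6.79 and 6.82.

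In intestinal genes the list mean was 5.38, 4.92 and 4.82, and replicate 1 was highest in 15 of 18. The chitinase gene chia.2 read 8.43, 7.73 and 7.20, and chia.1 read 5.88, 4.93 and 4.51. The lipid-handling genes fabp1b.1 (5.98, 4.80 and 4.58) and apoa4b.1 (8.10, 7.65 and 6.95) were likewise highest in replicate 1. The bile acid-binding gene fabp6 of the distal gut read 10.75, 10.84 and 10.47 and was not. Beside these lists, the GAPDH 3' minus 5' difference was 1.73, 1.55 and 1.69 in replicates 1, 2 and 3, and the acta1 difference 1.46, 1.18 and 1.57. Their part in the result was not tested.

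**Figure D3:**
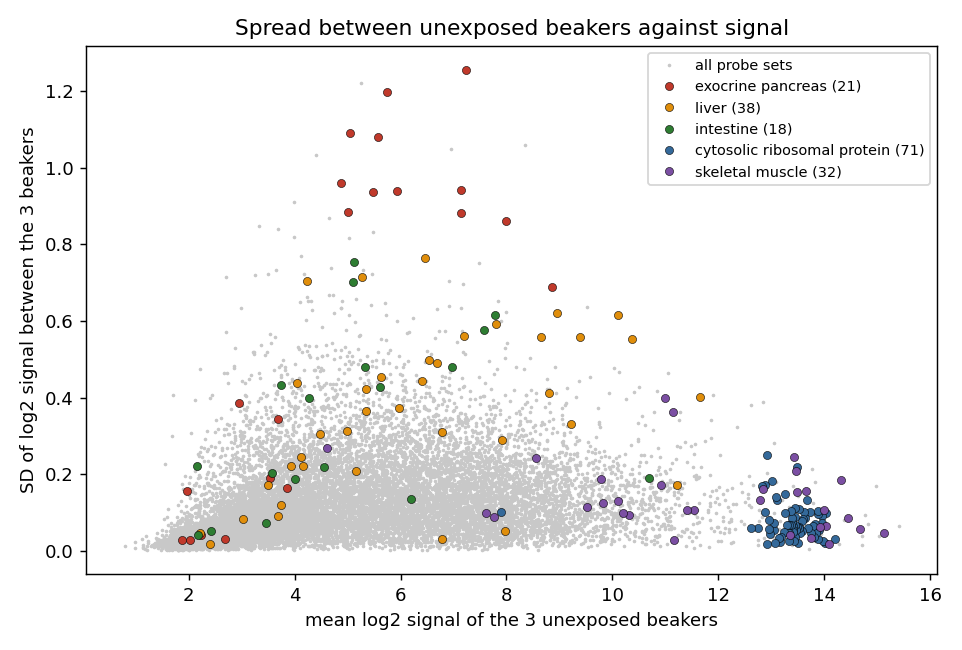
SD between the 3 unexposed beakers against mean log2 signal for all probe sets (grey) and for the genes of 5 lists. Exocrine pancreas genes hold most of the highest SDs, up to 1.26 for ctrb.1, while ribosomal protein genes lie at the right with a median SD of 0.065.

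Other lists moved far less between beakers. Skin genes had list means of 7.66, 7.57 and 7.43, with replicate 1 highest in 27 of 34 and replicate 3 lowest in 23. Leukocyte genes had means of 3.88, 3.71 and 3.66, with replicate 1 highest in 17 of 21, and their 1 gene with a range of 1 or more was cpa5, which the pancreas list also holds. Replicate 1 was also highest in 12 of 13 vitellogenin and egg coat genes and in 8 of 9 heart muscle genes. After quantile normalization these counts were 8 and 6. Neuron genes ran the other way, at 9.71, 9.82 and 9.85, with replicate 1 lowest in 19 of 33. Cell cycle genes averaged 4.13, 4.13 and 4.34, and replicate 3 was highest in 34 of 55, or in 29 after quantile normalization. Ribosomal protein genes averaged 13.34, 13.32 and 13.41. Over all genes replicate 3 was highest in 42.5%.

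**Figure D4:**
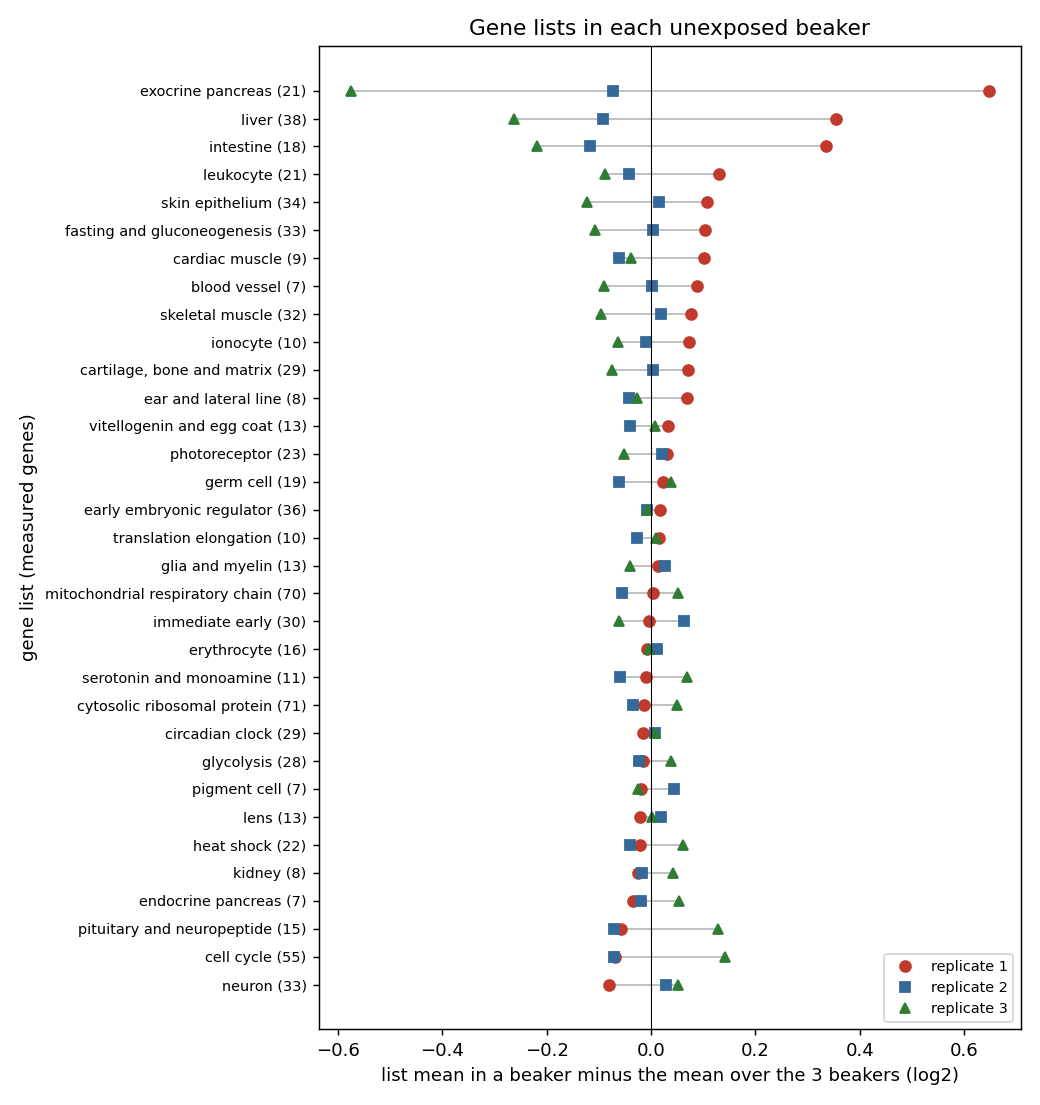
Mean log2 signal of each gene list in an unexposed beaker minus its mean over the 3 beakers, one line per list. Exocrine pancreas, liver and intestine span the most, with replicate 1 highest (list means 5.45, 4.73 and 4.23 for the pancreas), and most other lists stay close to 0.

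Beyond the 59 of 110 probe sets with replicate 1 highest and replicate 3 lowest, variable genes had other orders. In replicate 2 the heat shock cognate gene hsc70 stood out, at 3.97, 5.57 and 3.64. So did ppp1r15a, a phosphatase subunit that restores translation after stress, at 4.69, 6.35 and 5.42, and s1pr1, a receptor for sphingosine 1-phosphate, at 3.52, 4.94 and 3.53. In replicate 3 the thymidylate synthase gene tyms was high, at 2.84, 2.85 and 4.31, with pclaf, a partner of the replication clamp, at 4.35, 4.42 and 5.45, and cdca8 of the mitotic chromosome passenger complex at 2.51, 2.25 and 3.34. The adaptor gene pxna of focal adhesions kept the common order of replicates 1, 2 and 3, at 7.42, 7.20 and 6.10, with replicate 3 farthest apart. Of the 110 probe sets, the beaker farthest from the mean was replicate 1 in 54, replicate 2 in 14 and replicate 3 in 42.

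The exposed groups show whether the same probe sets vary elsewhere, in arrays that did not choose them. The 100 most variable probe sets had a median SD of 0.676 and 0.439 in fluoxetine at 25 and 250 µg/L and 0.317 and 0.219 in sertraline at 25 and 250 µg/L, against 0.645 in unexposed larvae. For all probe sets the medians were 0.136, 0.106, 0.089 and 0.091 in the same exposed groups, against 0.098 in unexposed larvae. Of the 110 probe sets with a range of 1 or more in unexposed larvae 88 lay between 4 and 8, a band whose medians in the exposed groups were 0.184, 0.144, 0.117 and 0.128. In each of the 4 exposed groups the 100 probe sets thus spread more widely than its band, by a varying margin.

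The exocrine pancreas list spread widely in 3 of the 4 exposed groups. Its means were 7.59, 7.18 and 5.21 in fluoxetine at 25 µg/L and 6.42, 5.56 and 5.29 at 250 µg/L. In sertraline they were 5.11, 4.79 and 5.53 at 25 µg/L and 5.39, 5.40 and 5.22 at 250 µg/L. Of the unexposed beakers, at 5.45, 4.73 and 4.23, only replicate 1 lay among these values. Replicates 2 and 3 lay below the lowest exposed beaker, at 4.79, and replicate 3 was the lowest of all 15. The beaker that was highest for the pancreas list was also highest for the intestine list in 3 of the 4 exposed groups, and for the liver list in 1 of the 4. In unexposed larvae it was highest for both. Some of these ranks were close, as for the pancreas list in sertraline at 250 µg/L (5.40 and 5.39). In fluoxetine at 25 µg/L the liver means were 7.55, 7.57 and 5.88, so replicate 3 was lowest there for all 3 lists. This was not particular to them: skin read 7.98, 7.91 and 6.54 there, and ionocytes 6.81, 6.92 and 6.12. Neurons went the other way, at 9.46, 9.40 and 9.77. Fluoxetine at 25 µg/L also had the most probe sets with a range of 1 or more, 594 against 110 in unexposed larvae. The pancreas and intestine lists had the order of replicates 1, 2 and 3, highest first, in both fluoxetine groups and in unexposed larvae. Neither list had it in a sertraline group. Of the 33 lists, 11 had this order in unexposed larvae and 10 in each fluoxetine group. In sertraline at 25 and 250 µg/L, 2 and 4 lists had it.

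**Figure D5:**
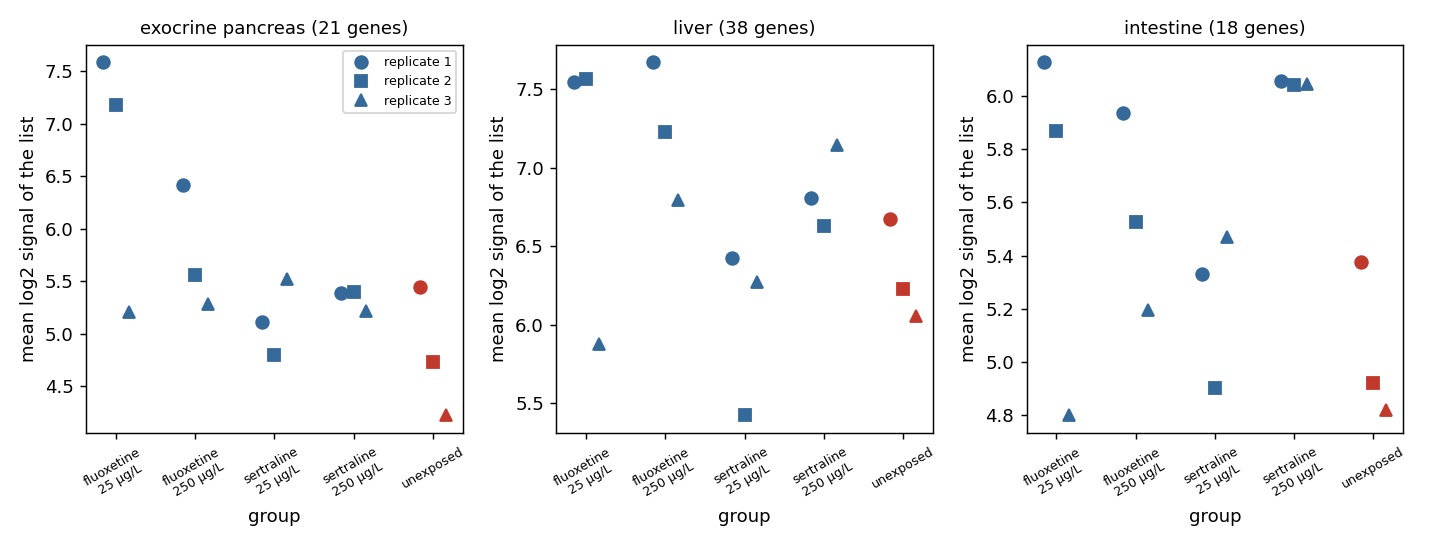
Mean log2 signal of the exocrine pancreas, liver and intestine lists in every beaker, with 4 exposed groups in blue and unexposed larvae in red. Beakers of 1 group lie apart by more than 2 for the pancreas list in fluoxetine at 25 µg/L, and the unexposed beakers lie within the range of the exposed ones except for pancreas replicates 2 and 3.

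Set against the mean of the 4 exposed groups in limma, 107 of 15502 probe sets (0.690%) passed an adjusted p of 0.05, 23 higher (0.148%) and 84 lower (0.542%) in exposed larvae. Of the 100 brightest, 0 passed, and 2 had an unadjusted p under 0.05. The count stayed at 0 in each of 20 alternative limma fits. Of the 100 most variable, 0 passed and 27 had an unadjusted p under 0.05, compared with 1232 (7.95%) of all probe sets. The alternatives gave 3 calls there without replicate 3 of fluoxetine at 25 µg/L, 1 without control replicate 1, 1 with a replicate block and 0 otherwise. The wide spread that chose these probe sets enters the error of this fit.

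For the pancreas list the median difference, exposed minus unexposed, was 1.07 on the log2 scale, compared with -0.0019 over all genes. None of its 21 genes passed in limma, and 10 (47.6%) had an unadjusted p under 0.05. The liver list had a median difference of 0.49 with 0 of 38 passing and 4 (10.5%) under the unadjusted limit, near the share of all probe sets. The intestine list had 0.41, with 0 of 18 passing and 5 (27.8%) under that limit. Such shares were not confined to digestive genes. They were 44.8% for the clock list, 43.5% for photoreceptors, 27.3% for neurons and 0.00% for skin. Genes of a list that move together between beakers are not separate observations. The exposed groups were not alike for these digestive lists. For the intestine list the beakers of sertraline at 250 µg/L read 6.06, 6.04 and 6.04, against 5.38, 4.92 and 4.82 in unexposed larvae, with no overlap. In fluoxetine at 25 µg/L they read 6.13, 5.87 and 4.80 and overlapped with the unexposed.

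Of the 29 measured clock genes 7 passed in the same comparison, 6 lower and 1 higher in exposed larvae, against 79 of all 8793 genes. The gene lists were chosen with earlier results of these data known. Clock proteins of the Period and Cryptochrome families repress their own transcription in a daily cycle. The gene per2, which light induces in zebrafish, had a lowest value of 8.72, a median of 10.01 and a highest of 11.02 in the 12 exposed beakers, against 10.91, 11.02 and 11.23 in the unexposed. The exposed and unexposed ranges overlapped. The mean of the 4 exposed groups minus unexposed was -1.06 (SE 0.09, limma adjusted p = 2.093e-04, 5.752e-05 to 0.0042 over the alternatives). These per2 values are from its brightest probe set. Another per2 probe set, at 4.59, 5.57 and 5.42 in the unexposed, was not among those that passed. The clock repressor gene ciarta ranged over 7.95 to 10.02 with a median of 9.11 in exposed larvae, against 10.23, 10.25 and 9.85 in the unexposed. Its difference was -1.06 (SE 0.09, limma adjusted p = 2.093e-04, 5.752e-05 to 0.0049 over the alternatives). By the mean of the 4 groups, cry2, cry1b, cry-dash and bhlhe41 were also lower in exposed larvae, and rorcb, a nuclear receptor gene, was higher. The 4 groups were not alike. The clock list averaged 5.51 to 5.68 in the fluoxetine beakers and 5.84 to 5.92 in the sertraline beakers, against 5.92 to 5.95 in unexposed larvae. The gene per2 averaged 9.01 and 9.09 in fluoxetine at 25 and 250 µg/L and 11.01 and 10.88 in sertraline at 25 and 250 µg/L, against 11.05 in unexposed larvae. For cry2 the highest exposed beaker, at 8.48, lay above the unexposed mean of 8.15. The difference between the drugs was not tested here.

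Photoreceptor genes gave 3 of 23 that passed, against 79 of all 8793 genes. The limma adjusted p was 0.0086 for opn1mw2, 0.0044 for guca1c and 0.0110 for pde6c. The opsin gene opn1mw2 was higher in all 12 exposed beakers, with a lowest value of 6.64, a median of 7.03 and a highest of 8.18, against 6.14, 5.80 and 6.46 in the unexposed. The cone genes guca1c and pde6c, both of the light response pathway, were lower by the mean of the 4 groups. For pde6c the group means were 11.42 and 11.33 in fluoxetine at 25 and 250 µg/L and 12.12 and 12.08 in sertraline at 25 and 250 µg/L, against 12.23 in unexposed larvae. The glucocorticoid receptor co-chaperone gene fkbp5 was uniform in the unexposed beakers. It ranged over 4.82 to 9.57 with a median of 8.49 in exposed larvae, against 10.27, 10.18 and 10.28 in the unexposed, with no overlap.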

How the data were processed

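The authors deposited a table of log2 signals with a value for every probe set on each of 15 one-colour Affymetrix zebrafish arrays. GCRMA and Partek are named in the submitters' processing notes, with neither role nor version. Each array took 5 µg of total RNA per the labels. Of 15617 probe sets, 115 Affymetrix controls were left out. Of the rest, 10795 had 1 symbol, 135 several and 4572 none. Symbols came from the platform annotation. For genes with several probe sets, that with the highest mean in unexposed larvae was used. No coordinate or sequence was used.

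Each beaker was 1 replicate (n = 3). Means, SDs and ranges over the 3 control arrays are descriptions. The mean of the 4 exposed groups minus control was fitted in limma to all 15 arrays, with Benjamini-Hochberg adjustment over 15502 probe sets and 0.05 as threshold. Precision is limited by the number of arrays. The fit was tested on simulated data.

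The members and the 34 gene lists were chosen with earlier results of these data known, and the ribosomal, respiratory chain and elongation lists were corrected once the symbols on the array were seen. Named by rule were the 30 brightest and 30 most variable genes, the 10 most variable among the upper 60% of probe sets by mean, fkbp5, cell type markers and, per list, the 4 brightest, 2 dimmest and 2 most variable. Other genes were named after their values were seen.

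Over all probe sets same-numbered beakers did not deviate together in every pair (r from -0.32 to 0.40), so the numbers were not taken as pairs. Alternatives were quantile normalization, median centring, omission of the dimmest 40% of probe sets or of probe sets shared between transcripts, averaging a gene's probe sets, a trended and robust prior, omission of each array and a replicate block. The software was limma 3.58.1 in R 4.3.3, with Python 3.11.15 and matplotlib 3.10.9 for tables and plots.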

Additional observations from a re-analysis of the deposited data

How the results depend on the processing

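The 100 brightest probe sets, the lists with a median above that of all genes and the median SD of the variable set in exposed larvae kept within 1.5 times of their reported values, or within the spread between beakers, in each alternative run. Leaving out 1 control beaker lowered the count of probe sets with a range of 1 or more, by construction in part since fewer beakers are spanned, to 28 without replicate 1 and 42 without replicate 3. The range over the 3 omissions was 28 to 82. Of the 100 most variable probe sets, 46 to 78 were shared with those so chosen. The median SD was 0.0689 to 0.0863 without 1 control beaker, and 0.131 with the dimmest 40% of probe sets left out, where the average signal is higher. The calls between exposed and unexposed larvae numbered 40 to 169 when 1 array was left out, with 6 to 50 higher and 33 to 119 lower in exposed larvae. They were 169 without replicate 3 of fluoxetine at 25 µg/L, 67 and 71 without replicates 2 and 3 of sertraline at 25 µg/L, and 62, 40 and 45 without control replicates 1, 2 and 3. The cause was not tested. With a replicate block 87 probe sets were called, 21 higher and 66 lower. The median correlation of same-numbered beakers' deviations was 0.10, -0.03 and -0.17 for numbers 1, 2 and 3 (highest 0.35, 0.18 and 0.40), and 5 of 15 arrays correlated best with their own number. Of the calls named or counted in gene lists, cry-dash and pde6c were each lost in 3 of the 20 alternatives, opn1mw2 and rorcb each in 1, fosl2 in 14, egr4 in 13, ppargc1b in 6, socs3b in 4, mmrn2a in 2 and hspb6 in 1. List medians moved by more than the spread between beakers in 54 recalculations and by less in 177. Of the 54, 18 came when the probe sets of a gene were averaged.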

Other observations

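Probe sets of the same gene often disagreed. Of 8793 genes, 1539 had several probe sets, and the median gap between the brightest and the dimmest of a gene was 2.04 on the log2 scale in unexposed larvae. In 322 of these genes (20.9%) it reached 4 or more. The actin gene actc1b had probe sets with means of 15.13, 14.98 and 2.39. A gene described by its brightest probe set is therefore not shown by all of its probe sets.

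Some genes at 8 or over barely differed between the unexposed beakers. They were chosen for this after their values were seen. The ubiquitin-conjugating enzyme gene ube2d3 read 8.60, 8.60 and 8.60, an SD of 0.0021. The RNA-binding protein gene cirbpa read 11.54, 11.55 and 11.55. The acyl-CoA-binding protein gene dbi read 8.31, 8.30 and 8.30, and the translation factor gene eif5a2 read 9.55, 9.55 and 9.53. Since a small SD in unexposed larvae chose them, a larger SD in other groups follows from the choice. The median SD over the 4 exposed groups was 0.097 for ube2d3 and 0.20 for cirbpa. For all probe sets the median SD was 0.136 and 0.106 in fluoxetine at 25 and 250 µg/L. It was 0.089 and 0.091 in sertraline at 25 and 250 µg/L.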
